A study of Mus musculus with 8 samples.

Results

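Macrophage and phagocyte genes were followed in the ventricles of embryonic mouse hearts. The list holds 36 genes, and 33 of them have values in the table of 13869 genes; Cd163, Timd4 and Ms4a7 are not analysed here. The list was chosen by knowledge of the cell type and with mutant and wild-type CPM of these same 8 libraries already known from an earlier pass over the data. Its differences are therefore a description of these libraries and no independent evidence of a direction. The genes were sorted by role into leukocyte lineage genes, macrophage identity genes, markers of resident macrophages, C1q chains, phagocytic receptors with their adaptors, and lysosomal, lipid and oxidase genes.

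The mutant group held 4 libraries from Mib1flox; TnT-Cre ventricles at E14.5, and the wild-type (WT) group held 4 libraries from WT ventricles of the same age. Cre was driven by the promoter of cardiac troponin T, which is active in cardiomyocytes, so the macrophages of a mutant heart are not the cells in which Mib1 was targeted. Mib1 encodes a ubiquitin ligase that Notch ligands need in order to signal. For each genotype 16 hearts were combined into 4 pools of ventricles, so each library averages over several embryos. The labels do not state whether the pools came from different litters, and a p value therefore reflects only how these pools varied.

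Levels are given as CPM, the counts for each 1000000 counts of a library after its normalization. Totals ran from 6597943 to 11506082 counts in mutant libraries and from 6307634 to 8964058 in WT libraries, and a floor of 3 counts corresponds to between 0.265 and 0.472 CPM, for counting error only. As a check of the labels, Mib1 had 106, 103, 95.3 and 96.3 CPM in the mutant libraries, against 150.3, 165.5, 160.5 and 166.8 CPM in the WT libraries. Its log2 difference was −0.68 ± 0.06 (SE), with an adjusted p of 8.62e-06 in limma and an exact two-sided permutation p of 0.0286, which is as low as a design of 4 and 4 allows. The 14 cardiomyocyte genes summed to between 46010 and 49120 CPM in mutant libraries and to between 47960 and 52440 CPM in WT libraries, which fits the labelled tissue, and 0 of 13 lymphoid marker genes had a row.

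Macrophages enter the heart early in development, first from the yolk sac and then from the fetal liver, and settle in the myocardium, beneath the epicardium and along the coronary vessels. They depend on signalling through the receptor encoded by Csf1r. As phagocytes they bind dying cells and opsonised particles through surface receptors, with C1q among the opsonins they secrete, and they degrade what they take up in lysosomes. Mrc1, Lyve1, F13a1 and Stab1 mark resident tissue macrophages, while Trem2, Gpnmb, Lgals3 and Apoe are known to rise in phagocytes that handle lipid and cell debris.

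Most of the macrophage and phagocyte genes were lower in mutant ventricles, but only some of them past the test. Those called lower were Gpnmb, Trem2, Tyrobp, Lyz2, C1qc, Ctss, Mpeg1 and Apoe. In numbers, 8 of 33 members were called lower at an adjusted p under 0.05 (limma over all 13740 genes tested, Benjamini-Hochberg), 0 were called higher and 25 were not called. At an unadjusted p under 0.05 there were 21 lower members and 1 higher, Lyve1, while 14.8% of all genes tested passed that mark in either direction. Among all genes tested, 1.25% were called lower and 0.99% higher. The difference was below 0 in 30 of the 33 members and above 0 in 3, with a median of −0.54 on the log2 scale and a range of −1.67 to 0.34. Over all genes tested the median was 0.00 and 49.7% lay below 0. In 10 members all 4 mutant libraries lay below all 4 WT libraries, against 4.63% of all genes tested, and in 0 members did all mutant libraries lie above, against 4.26%. These 10 were the 8 called genes with Aif1 and Stab1. In these bulk samples fewer macrophages and less RNA of these genes per macrophage cannot be told apart. None of these shares is read as evidence, because the list was assembled with the contrast in view. With WT replicate 1 or WT replicate 3 left out, 3 members were called lower, namely Lyz2, Mpeg1 and Tyrobp, and these were called in all 8 fits that left out a library.

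**Figure D1:**
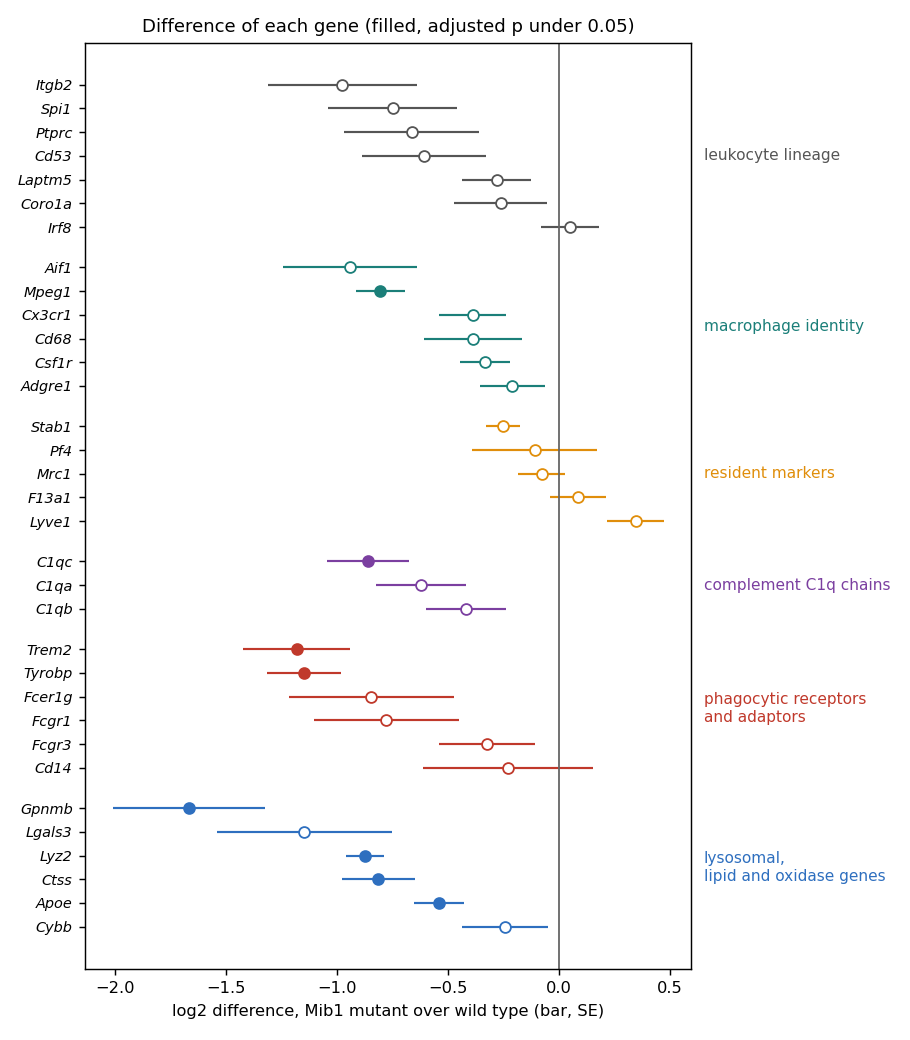
Log2 difference of mutant over wild-type ventricles for each of the 33 measured genes (x axis, points with SE), grouped by role, with filled points for an adjusted p under 0.05 in limma. The 8 filled points lie left of 0 and belong to 4 of the 6 role groups. Irf8, F13a1 and Lyve1 are the 3 points to the right of 0.

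The groups differed in how far their members stood from 0. The median log2 difference was −0.85 over the 6 lysosomal, lipid and oxidase genes, −0.81 over the 6 phagocytic receptors and adaptors, −0.62 over the 3 C1q chains and −0.61 over the 7 leukocyte lineage genes. It was −0.39 over the 6 macrophage identity genes and −0.08 over the 5 resident markers. Taking the C1q chains with the phagocytic receptors and adaptors as the complement and phagocytic genes, 3 of 9 were called lower and the median was −0.78, against 0 of 5 and −0.08 for the resident markers. The difference between these groups of genes was not tested. Over all genes tested 1.25% were called lower, so 0 of 5 is no result about the resident markers. Among these markers, Stab1 had all mutant libraries below all WT libraries.

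All 6 lysosomal, lipid and oxidase genes lay below 0, and 4 were called lower, namely Gpnmb, Lyz2, Ctss and Apoe. Lyz2 (ENSMUSG00000069516), which encodes the lysozyme of macrophages, had 16.0, 17.0, 17.5 and 15.7 CPM in the mutant libraries, against 33.0, 29.1, 27.6 and 32.5 CPM in the WT libraries. Every mutant library lay well below the lowest WT library. The spread of the mutant libraries (SD 0.845 CPM) was smaller than the 1.42 CPM expected from counting error alone. Lyz2 was 1.84-fold lower in mutant ventricles, with a log2 difference of −0.88 ± 0.09 (SE) and an adjusted p of 4.94e-05 in limma. The largest adjusted p with a library left out was 0.000486. Lyz1, its paralogue beside which reads could have been divided, was named after its values were seen and averaged 1.35 ± 0.679 CPM in mutant and 2.80 ± 0.982 CPM in WT libraries (SD, n = 4 each).

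Gpnmb (ENSMUSG00000029816), a membrane glycoprotein of lysosomes in lipid-laden phagocytes and of melanosomes, had 2.29, 11.2, 4.94 and 5.86 CPM in the mutant libraries, against 22.9, 13.3, 15.1 and 17.0 CPM in the WT libraries. The groups did not overlap, but mutant replicate 2 stood close to WT replicate 2 and the mutant libraries were widely spread. Gpnmb was 3.18-fold lower in mutant ventricles, at −1.67 ± 0.34 (SE) and an adjusted p of 0.0206 in limma, and the call was lost without WT replicate 1, 3 or 4 (adjusted p of 0.0832, 0.0542 and 0.0504), with robust variances (0.174) and with no trend on the mean level (0.138). Of 8 melanocyte genes, a list added after the values were seen, 3 had a row, 2 were tested and 0 were called. Tyr, the pigment enzyme tyrosinase, averaged 1.38 ± 0.264 CPM in mutant and 2.10 ± 0.474 CPM in WT libraries (SD, n = 4 each), at −0.58 with an adjusted p of 0.338 in limma. Mitf, a transcription factor of pigment cells that other tissues also express, averaged 85.1 ± 5.93 CPM in mutant and 78.1 ± 5.12 CPM in WT libraries, at 0.12 with an adjusted p of 0.422, and the melanosome gene Pmel, too low to be tested, averaged 0.832 ± 0.459 CPM in mutant and 1.01 ± 0.116 CPM in WT libraries (SD, n = 4 each). What share of Gpnmb RNA came from pigment cells was not tested.

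Ctss (ENSMUSG00000038642), the lysosomal protease cathepsin S, had 5.91, 8.02, 4.49 and 6.85 CPM in the mutant libraries, against 11.2, 10.8, 12.1 and 9.66 CPM in the WT libraries. The highest mutant library lay below the lowest WT library. The difference was −0.81 ± 0.17 (SE) with an adjusted p of 0.0192 in limma, and it passed the threshold no longer without WT replicate 1, 2 or 3 (0.0687, 0.0637 and 0.0739). Apoe (ENSMUSG00000002985), the lipid carrier apolipoprotein E, was the most abundant member per length, at 82.8 CPM per kb of its longest transcript in mutant and 119.5 CPM per kb in WT libraries. It had 87.0, 120.5, 126 and 132.5 CPM in the mutant libraries, against 184.9, 179.8, 158.7 and 149.4 CPM in the WT libraries. Mutant replicate 1 was far below the other mutant libraries, and the gap between the highest mutant and the lowest WT library was narrow. Apoe was 1.46-fold lower, at −0.54 ± 0.11 (SE) and an adjusted p of 0.0211 in limma, and the call was lost without WT replicate 1, 2 or 3 (0.0852, 0.0803 and 0.0513), with robust variances (0.102) and with no trend (0.141). Apoe is also made by cell types other than macrophages, and their part in the difference was not tested.

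The remaining members of the group did not pass the test. Lgals3, which encodes the sugar-binding protein galectin 3, had 0.794, 4.58, 2.69 and 2.37 CPM in the mutant libraries, against 6.63, 4.88, 4.73 and 3.91 CPM in the WT libraries. Mutant replicate 2 reached into the WT range, and mutant replicate 1 held only 9 counts. The difference was −1.15 ± 0.40 (SE) with an adjusted p of 0.176 in limma. Cybb, the membrane subunit of the phagocyte oxidase, averaged 4.36 ± 0.915 CPM in mutant and 5.14 ± 0.917 CPM in WT libraries (SD, n = 4 each), at −0.24.

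Among the phagocytic receptors and adaptors, Trem2 and its signalling partner Tyrobp were called lower and the other 4 were not called. Tyrobp (ENSMUSG00000030579), the membrane adaptor DAP12, had 2.29, 2.29, 2.24 and 2.37 CPM in the mutant libraries, against 5.19, 5.22, 5.51 and 4.77 CPM in the WT libraries. The mutant libraries lay within a narrow band, and the lowest WT library was above all of them. Tyrobp was 2.22-fold lower, with a log2 difference of −1.15 ± 0.17 (SE) and an adjusted p of 0.00183 in limma. The counts behind it were 15 to 26 in mutant and 35 to 47 in WT libraries, and the spread of the mutant libraries (SD 0.0507 CPM) was smaller than the 0.528 CPM expected from counting error alone. Trem2 (ENSMUSG00000023992), a receptor for lipids and for debris of dying cells, had 1.15, 1.40, 1.95 and 1.49 CPM in the mutant libraries, against 3.75, 2.78, 4.09 and 3.18 CPM in the WT libraries. Every mutant library lay below every WT library, on 11 to 13 counts in mutant and 25 to 26 counts in WT libraries. Trem2 was 2.27-fold lower, at −1.18 ± 0.24 (SE) and an adjusted p of 0.0203 in limma, and was not called without mutant replicate 2, WT replicate 1 or WT replicate 3 (0.0547, 0.0794 and 0.0815).

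The receptors for antibody showed lower means with overlapping libraries. Fcgr1, the high-affinity receptor for IgG, had 0.882, 1.27, 1.95 and 1.12 CPM in mutant libraries, against 2.45, 1.33, 2.99 and 2.32 CPM in WT libraries, at −0.78 ± 0.33 (SE). Fcer1g, the signalling chain that Fc receptors share, had 1.59, 3.69, 1.05 and 1.62 CPM in mutant libraries, against 5.04, 1.78, 3.62 and 3.42 CPM in WT libraries, at −0.85 ± 0.37 (SE). In both genes WT replicate 2 fell inside the mutant range, and for Fcer1g WT replicates 3 and 4 also lay below mutant replicate 2. Fcgr3, a low-affinity IgG receptor, averaged 3.34 ± 0.567 CPM in mutant and 4.25 ± 1.004 CPM in WT libraries (SD, n = 4 each), and Cd14, a co-receptor for bacterial lipopolysaccharide, averaged 0.988 ± 0.293 CPM in mutant and 1.19 ± 0.457 CPM in WT libraries. Their differences were −0.33 and −0.23, and the adjusted p of these 4 genes in limma lay between 0.281 and 0.837.

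The chains of C1q, the part of complement that recognises dying cells and antibody, were measured as 3 genes, which are consecutive protein-coding genes on chromosome 4 of GRCm38. C1qc (ENSMUSG00000036896) had 3.97, 4.58, 6.28 and 3.61 CPM in the mutant libraries, against 9.66, 6.88, 7.87 and 8.80 CPM in the WT libraries. Mutant replicate 3 lay just below the lowest WT library, and the groups did not overlap. Its difference was −0.86 ± 0.18 (SE) with an adjusted p of 0.0240 in limma, and the call was lost in 6 of the 8 fits that left a library out. Without mutant replicates 1, 2 or 4 its adjusted p was 0.0540, 0.0624 and 0.0651, and without WT replicates 1, 3 or 4 it was 0.0964, 0.0666 and 0.0669.

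C1qa had 3.26, 5.34, 4.19 and 3.61 CPM in mutant libraries, against 8.503, 6.22, 5.83 and 4.89 CPM in WT libraries, at −0.62 ± 0.20 (SE) with an adjusted p of 0.152 in limma. C1qb had 3.88, 6.23, 6.58 and 5.48 CPM in mutant libraries, against 8.21, 7.22, 5.99 and 7.95 CPM in WT libraries, at −0.42 ± 0.18 (SE) with an adjusted p of 0.293. For each of these chains the ranges overlapped. Per kb of the longest transcript the chains stood close together, at 3.94, 5.10 and 3.83 CPM per kb for C1qa, C1qb and C1qc in mutant libraries and at 6.11, 6.75 and 6.90 CPM per kb in WT libraries.

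The start regions of the genes are shown because macrophage promoters are known for sites of PU.1, the factor encoded by the member Spi1, whose core is the PU box. The 250 bases before the RefSeq start (GRCm38.p6) were searched for the PU box GAGGAA on both strands. Of the 33 measured members, 25 had a window and 8 had none. The PU box was found in 18 of their 32 windows (56.25%), against 7639 of all 32851 windows (23.3%). Some members had more than 1 window, and windows such as those of Fcgr3 overlap, so a site can be counted more than once. By gene, 16 of the 25 members held a match. The difference in share was not tested. Of the 7 called members with a window, Apoe, C1qc, Ctss and Trem2 held a match, while Gpnmb, Lyz2 and Mpeg1 held none. For Gpnmb and Mpeg1 the first 30 transcribed bases after the window did not lie in a GENCODE transcript of the gene. The same held for the uncalled C1qb and Cd68, whose windows held a match. The motif GTGGGAA, the core bound by the Notch effector RBPJ, had 0 matches in the 32 member windows, against 5.42% of all windows. With so small a share over all windows, 0 of 32 is no result about these genes. A match is a string of letters and not a measured site, and called and uncalled members both held it. The windows of C1qc (chr4:136892915-136893164, minus strand), Ctss (chr3:95526536-95526785, plus strand) and Trem2 (chr17:48346151-48346400, plus strand) stand for called genes with a match, nearest to the start at −193, −164 and −40. Lyz2 (chr10:117282273-117282522, minus strand) stands for a called gene without a match, and Mrc1 (chr2:14229164-14229413, plus strand) for a resident marker that was not called and holds 3 matches, the nearest at −35. Each is written 5′ to 3′ in the direction of the gene, with the PU box, or its complement TTCCTC, in capitals.
C1qc: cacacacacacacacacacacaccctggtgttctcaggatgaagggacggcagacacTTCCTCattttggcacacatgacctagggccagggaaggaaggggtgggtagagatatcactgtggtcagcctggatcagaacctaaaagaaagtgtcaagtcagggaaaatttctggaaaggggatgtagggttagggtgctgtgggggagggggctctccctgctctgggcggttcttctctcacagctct
Ctss: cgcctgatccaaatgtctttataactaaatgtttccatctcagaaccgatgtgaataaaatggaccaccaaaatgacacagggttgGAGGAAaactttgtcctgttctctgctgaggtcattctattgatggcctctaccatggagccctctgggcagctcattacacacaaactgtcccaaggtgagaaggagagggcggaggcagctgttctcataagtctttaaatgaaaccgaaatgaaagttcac
Trem2: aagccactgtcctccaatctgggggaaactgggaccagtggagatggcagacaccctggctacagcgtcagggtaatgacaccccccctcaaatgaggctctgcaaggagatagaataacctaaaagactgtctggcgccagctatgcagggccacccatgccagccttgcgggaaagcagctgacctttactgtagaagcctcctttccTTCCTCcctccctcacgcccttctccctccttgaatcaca
Lyz2: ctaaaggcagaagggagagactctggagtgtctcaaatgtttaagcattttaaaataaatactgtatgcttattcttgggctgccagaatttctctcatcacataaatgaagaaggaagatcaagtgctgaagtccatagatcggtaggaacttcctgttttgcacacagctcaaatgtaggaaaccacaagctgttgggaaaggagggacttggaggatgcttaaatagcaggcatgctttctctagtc
Mrc1: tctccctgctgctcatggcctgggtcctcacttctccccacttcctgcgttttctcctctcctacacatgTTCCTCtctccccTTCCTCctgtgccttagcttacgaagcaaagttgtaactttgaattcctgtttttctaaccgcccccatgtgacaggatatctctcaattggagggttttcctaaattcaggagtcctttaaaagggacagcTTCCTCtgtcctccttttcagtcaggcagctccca

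Of the 6 macrophage identity genes measured, Mpeg1 was called lower and the other 5 were not called. Mpeg1 (ENSMUSG00000046805), which encodes the pore-forming protein perforin 2, had 8.02, 10.7, 10.8 and 10.3 CPM in the mutant libraries, against 17.6, 17.2, 17.2 and 17.4 CPM in the WT libraries. The WT libraries were nearly equal, with an SD of 0.189 CPM against 1.52 CPM expected from counting error alone, and mutant replicate 1 was the lowest. Mpeg1 was 1.75-fold lower, with a log2 difference of −0.81 ± 0.11 (SE) and an adjusted p of 0.00117 in limma. Csf1r, the receptor of the macrophage growth factor, had 15.8, 18.7, 19.6 and 16.2 CPM in the mutant libraries, against 24.6, 19.5, 25.0 and 19.7 CPM in the WT libraries. Mutant replicate 3 reached just above the lowest WT library, and the difference was −0.33 ± 0.11 (SE) with an adjusted p of 0.161 in limma.

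The other identity genes ran from the scarce Aif1 to the fractalkine receptor Cx3cr1. Aif1, the actin-binding protein IBA1, had 0.617, 1.018, 0.898 and 0.997 CPM in mutant libraries, against 1.59, 1.55, 2.05 and 1.71 CPM in WT libraries. The groups did not overlap, on 6 to 8 counts in mutant and 11 to 14 counts in WT libraries, and the difference of −0.94 ± 0.30 (SE) had an adjusted p of 0.143 in limma. Adgre1, the surface antigen F4/80, averaged 5.17 ± 0.645 CPM in mutant and 5.97 ± 0.432 CPM in WT libraries (SD, n = 4 each), at −0.21. Cx3cr1 averaged 7.88 ± 1.47 CPM in mutant and 10.3 ± 1.27 CPM in WT libraries, and the endosomal glycoprotein gene Cd68 averaged 4.08 ± 0.783 CPM in mutant and 5.47 ± 1.65 CPM in WT libraries (SD, n = 4 each), both at −0.39 and both with overlapping libraries.

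None of the 7 leukocyte lineage genes was called, and their libraries overlapped in every case. Over all genes tested 1.25% were called lower, and in 4.63% all mutant libraries lay below all WT libraries. These 2 counts of 0 are therefore no result about the 7 genes, of which 6 lay below 0. At an unadjusted p under 0.05 in limma were Itgb2 (0.0114), Spi1 (0.0216), Ptprc (0.0459) and Cd53 (0.0469). Ptprc, the phosphatase CD45 carried by all leukocytes, had 1.94, 4.58, 3.14 and 1.49 CPM in mutant libraries, against 4.47, 3.11, 4.88 and 4.03 CPM in WT libraries, at −0.67 ± 0.30 (SE). Mutant replicate 2 lay above WT replicates 1, 2 and 4, mutant replicate 3 lay just above the lowest WT library, and mutant replicates 1 and 4 lay below all WT libraries. Spi1, the transcription factor PU.1, had 1.32, 1.40, 2.39 and 1.12 CPM in mutant libraries, against 2.74, 3.33, 2.52 and 1.83 CPM in WT libraries, at −0.75 ± 0.29 (SE). Irf8, a transcription factor of the myeloid lineage and, with Spi1, of macrophage development, had 6.88, 9.54, 8.53 and 8.72 CPM in mutant libraries, against 7.78, 7.55, 8.66 and 8.31 CPM in WT libraries. Its mutant libraries held both the lowest and the highest value, and the difference was 0.05 ± 0.13 (SE).

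Itgb2, the integrin chain shared by leukocyte integrins, averaged 0.998 ± 0.394 CPM in mutant and 1.96 ± 0.477 CPM in WT libraries (SD, n = 4 each), on at most 16 counts in a library, at −0.98 with an adjusted p of 0.174 in limma. The tetraspanin gene Cd53 averaged 2.47 ± 0.716 CPM in mutant and 3.76 ± 1.07 CPM in WT libraries, at −0.61. Laptm5, a lysosomal membrane protein of blood cells, averaged 9.88 ± 1.66 CPM in mutant and 12.1 ± 2.45 CPM in WT libraries (SD, n = 4 each), at −0.28. Coro1a, the actin regulator coronin 1A, averaged 4.33 ± 1.03 CPM in mutant and 5.15 ± 1.03 CPM in WT libraries, at −0.26.

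No resident marker was called in either direction, and their differences lay on both sides of 0. At an unadjusted p under 0.05 in limma were Stab1 (0.00504), on the lower side, and Lyve1 (0.0178), on the higher side. Mrc1, the mannose receptor, had 16.2, 19.8, 21.8 and 16.9 CPM in the mutant libraries, against 20.9, 20.2, 17.8 and 19.7 CPM in the WT libraries. The mutant libraries held both the lowest and the highest value of the 8, and the difference was −0.08 ± 0.11 (SE) with an adjusted p of 0.790 in limma. Lyve1, a hyaluronan receptor of resident macrophages and of lymphatic endothelium, had 13.3, 11.3, 12.3 and 13.8 CPM in the mutant libraries, against 11.96, 9.21, 8.35 and 10.6 CPM in the WT libraries. WT replicate 1 lay among the mutant libraries and the other WT libraries lay below them, at 0.34 ± 0.13 (SE) with an adjusted p of 0.216. F13a1, the A chain of clotting factor XIII, had 12.7, 15.0, 12.9 and 14.6 CPM in the mutant libraries, against 15.7, 10.6, 12.1 and 14.1 CPM in the WT libraries. The difference of F13a1 was 0.08 ± 0.13 (SE), with the WT libraries spread over the whole mutant range.

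Stab1, the scavenger receptor stabilin 1, which endothelium also expresses, had 81.6, 105.9, 103.5 and 100.8 CPM in the mutant libraries, against 124, 112, 116 and 113 CPM in the WT libraries. The groups did not overlap, and mutant replicate 1 was the lowest. The difference was −0.25 ± 0.08 (SE) with an adjusted p of 0.114 in limma. Pf4, a chemokine of platelets that fetal macrophages also carry, averaged 1.29 ± 0.0741 CPM in mutant and 1.42 ± 0.307 CPM in WT libraries (SD, n = 4 each) on 8 to 15 counts in mutant and 9 to 15 counts in WT libraries, at −0.11 ± 0.28 (SE). A p that misses the threshold does not show that a resident marker was equal in the groups, and the SE of 0.11 to 0.13 for Mrc1, Lyve1 and F13a1 gives the precision of these libraries.

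**Figure D2:**
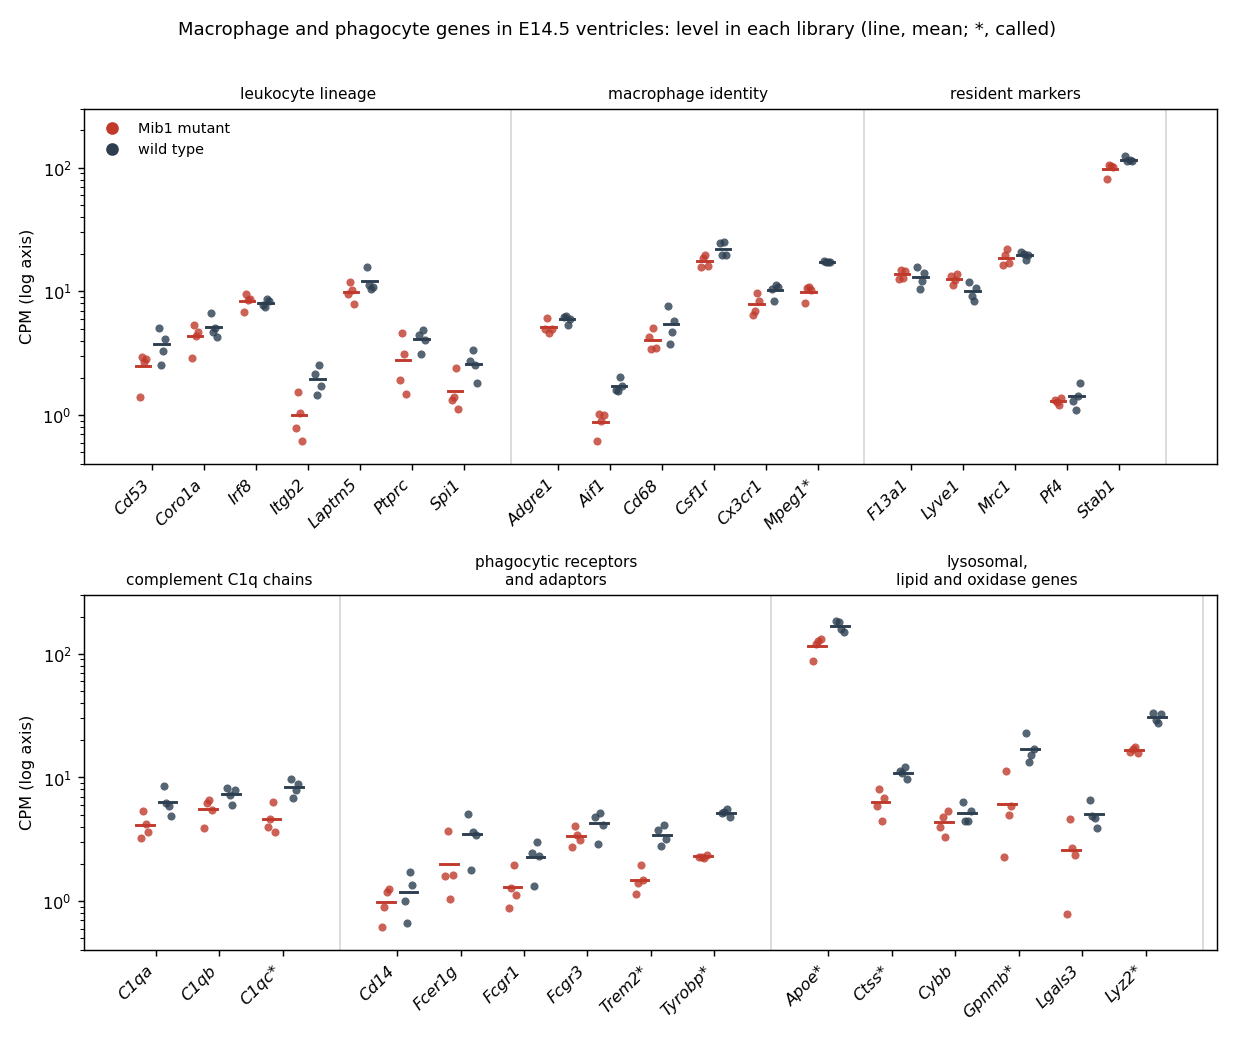
CPM of each measured gene (y axis, log scale) in the 4 mutant libraries (left of each pair) and the 4 wild-type libraries (right), with a line at the mean and an asterisk for genes called in limma. Lyz2, Mpeg1 and Tyrobp show a clear gap between the groups, with mutant libraries at 15.7 to 17.5, 8.02 to 10.8 and 2.24 to 2.37 CPM and wild-type libraries at 27.6 to 33.0, 17.2 to 17.6 and 4.77 to 5.51 CPM. The points of Mrc1, F13a1, Irf8 and Pf4 are mixed.

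The members were also described relative to Csf1r in the same library. The counts of each member were divided by the Csf1r counts of that library, which makes library size cancel, and the genes described here were chosen after their values were seen. Of 32 such ratios, 7 had all mutant libraries below all WT libraries (Aif1, Tyrobp, Lyz2, Mpeg1, Ctss, Trem2 and Gpnmb), 2 had all mutant libraries above (Lyve1 and Irf8) and 23 overlapped. Over the other 13739 genes tested, divided in the same way, 0.4% had all mutant libraries below and 19.6% had all above. Csf1r itself stood at −0.33, so a gene at the same CPM in both groups has a higher ratio in mutant libraries. For this reason, 2 of 32 above is no result about Lyve1 or Irf8. The 7 below come from the same libraries and from the list assembled with the contrast in view, so they are no separate evidence. There were 1.017, 0.912, 0.893 and 0.969 counts of Lyz2 per Csf1r count in the mutant libraries, against 1.34, 1.49, 1.10 and 1.65 in the WT libraries. Tyrobp averaged 0.132 ± 0.0160 per Csf1r count in mutant and 0.235 ± 0.0252 in WT libraries, and Trem2 averaged 0.0848 ± 0.0131 in mutant and 0.155 ± 0.00985 in WT libraries (SD, n = 4 each).

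Lyve1 stood at 0.844, 0.605, 0.626 and 0.854 per Csf1r count in mutant libraries, against 0.485, 0.472, 0.333 and 0.540 in WT libraries. Irf8 averaged 0.480 ± 0.0526 per Csf1r count in mutant and 0.368 ± 0.0466 in WT libraries, and Mrc1 averaged 1.06 ± 0.0373 in mutant and 0.898 ± 0.149 in WT libraries (SD, n = 4 each), where the groups overlapped for Mrc1. Fcgr3, Cx3cr1 and Cd68 kept ratios of mutant to WT near 1, at 0.999, 0.965 and 0.948. These ratios carry the spread of Csf1r itself and were not tested.

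**Figure D3:**
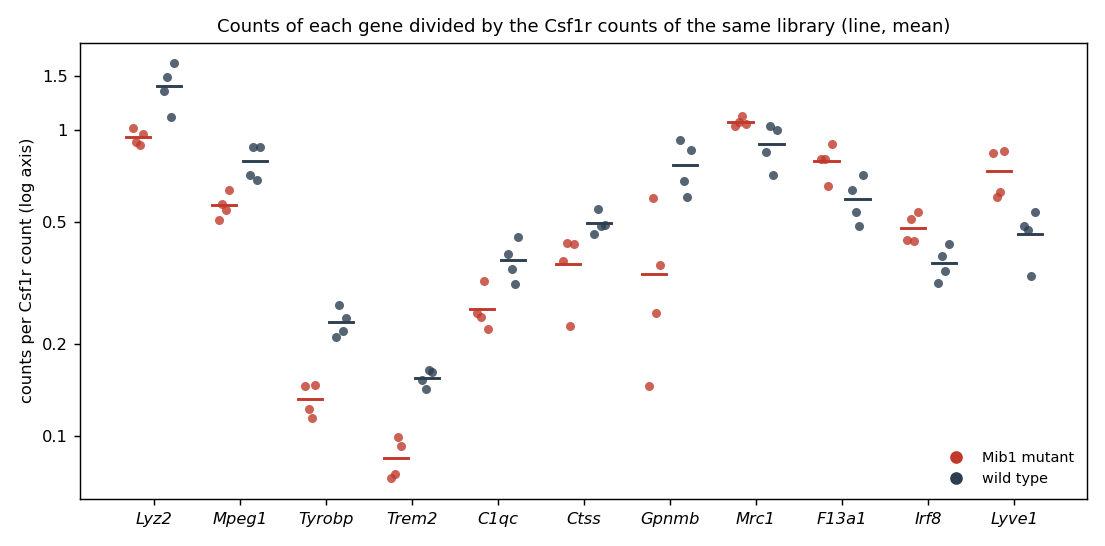
Counts of 11 genes per Csf1r count of the same library (y axis, log scale) in mutant libraries (left of each pair) and wild-type libraries (right), with a line at the mean; the genes were chosen after their values were seen. Lyz2, Mpeg1, Tyrobp, Trem2, Ctss and Gpnmb lie lower in mutant libraries with no overlap, C1qc, Mrc1 and F13a1 overlap, and Irf8 and Lyve1 lie higher in mutant libraries with no overlap.

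Some libraries stood apart in many members at the same time. Mutant replicate 1, the deepest library, was the lowest of the mutant libraries in 19 of 33 members (57.6%, against 29.8% of all genes tested) and the highest in 0. Mutant replicate 2 was the highest mutant library in 16 members. Among WT libraries, replicate 1 was the highest in 18 members (54.5%, against 24.7% of all genes) and the lowest in 0. WT replicate 2, the deepest WT library, was the lowest in 18 (54.5%, against 23.3%). Whether depth had a part in this was not tested. The summed level of the 33 members was 326.5, 433.3, 423.2 and 411.6 CPM in the mutant libraries, against 600.3, 521.4, 524.4 and 514.0 CPM in the WT libraries. These sums did not overlap, but Apoe and Stab1, which other cell types also express, were the largest parts of them. Apoe and Stab1 averaged 116.6 and 97.96 CPM in mutant libraries, and 168.2 and 116.3 CPM in WT libraries. Without mutant replicate 1 the median difference of the members was −0.41 and 7 were called lower, and without WT replicate 1 it was −0.46 and 3 were called lower.

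Further genes of macrophages and myeloid cells, 46 of 63 with values, mostly lay below 0 as well, with 3 called lower, 0 called higher, 43 below 0 and a median of −0.32. Lcp1, the leukocyte actin bundler L-plastin, averaged 32.6 ± 1.91 CPM in mutant and 40.8 ± 1.08 CPM in WT libraries, and Cyba, the partner chain of Cybb, averaged 27.5 ± 2.36 CPM in mutant and 35.7 ± 3.11 CPM in WT libraries (SD, n = 4 each). Lcp1 and Cyba fell by 0.32 and 0.37 on the log2 scale with adjusted p of 0.0216 and 0.0375 in limma. Lcp1 lost its call when mutant replicate 2 or 4 or any WT replicate was left out (adjusted p of 0.0516 to 0.0706), and Cyba when mutant replicate 1 or 2 or WT replicate 1, 2 or 3 was left out (0.0754 to 0.131). With the replicate block both lost it, at adjusted p of 0.0542 and 0.0650. Msr1, the scavenger receptor A, and Unc93b1, a chaperone of endosomal Toll-like receptors, were named after their values were seen; all their mutant libraries lay below all WT libraries, at −1.19 and −0.57 with adjusted p of 0.0807 and 0.0733 in limma.

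Lists were also made for signals that the tissue sends to macrophages, and for the pathways around complement and engulfment. Over all genes tested 1.25% were called lower and 0.99% higher, so few calls in lists of this size are no result about them. Of 6 macrophage growth factors and chemokines measured, 0 were called in limma. Cx3cl1, the ligand of Cx3cr1, averaged 17.1 ± 1.27 CPM in mutant and 13.7 ± 1.43 CPM in WT libraries (SD, n = 4 each). Its difference was 0.32 with all mutant libraries above and an adjusted p of 0.145 in limma. Csf1, a ligand of Csf1r, was named after its values were seen. It averaged 15.1 ± 0.980 CPM in mutant and 15.3 ± 1.38 CPM in WT libraries (SD, n = 4 each), at −0.02. Of 16 other complement genes, Masp1, a protease of the lectin pathway, rose by 0.54 with an adjusted p of 0.0214 and 0 were called lower. Masp1 had 29.98, 33.7, 30.4 and 30.9 CPM in mutant libraries, against 22.5, 17.6, 19.7 and 26.9 CPM in WT libraries, and lost its call without mutant replicate 2 or WT replicate 1, 2 or 3 (0.0764, 0.0563, 0.0701 and 0.0770). Of 24 genes for the uptake of dying cells in general, 1 was called lower and 0 higher, with a median of −0.02. It was Cd36, a scavenger receptor also abundant in endothelium, which averaged 182 ± 25.8 CPM in mutant and 238 ± 14.6 CPM in WT libraries (SD, n = 4 each), at −0.39 with an adjusted p of 0.0294. Its call was lost when mutant replicate 4 or any WT replicate was left out, with adjusted p between 0.0522 and 0.113.

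Lists of endothelial, erythroid and lysosomal genes also held genes called lower, and their part in the result was not tested. Of 16 endocardial and endothelial genes 6 were called lower and 0 higher, with Plvap at −0.65, Vwf at −0.80 and Npr3 at −0.46 the 3 of smallest p, and their sum was 1545 to 1615 CPM in mutant libraries and 1839 to 1903 CPM in WT libraries. Of 12 erythroid genes 2 were called lower, Ank1 at −0.55 and Hba-a1 at −0.55, and their sum was 2252 to 3435 CPM in mutant libraries and 3230 to 4324 CPM in WT libraries. Hba-a1, whose reads can be divided with its near-identical copy Hba-a2, lost its call in 6 of the 8 fits that left out a library, with adjusted p of 0.0656 to 0.149, all but those without mutant replicate 3 or 4. Of 28 lysosomal genes that all cells use, 3 were called lower, namely Gaa at −0.45, Ctsd at −0.24 and Grn at −0.26, and 23 lay below 0. Ctsd was not called without WT replicate 1, 2 or 3, nor Grn without these or mutant replicate 2, at adjusted p of at most 0.0769 and 0.0871.

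Over all genes tested 1.25% were called lower and 0.99% higher, so 0 called is no result about the short lists that follow. Among blood cell markers, 4 of 9 mast cell genes had a row with 0 called, and Gata2 had the smallest p at −0.36 with an adjusted p of 0.0926 in limma. Only 2 of 17 monocyte and neutrophil genes had a row, Itgam at −0.91 and, named after its value was seen, Csf3r at −0.39, and they summed to 1.94 to 3.18 CPM in mutant libraries and to 3.11 to 5.62 CPM in WT libraries. For megakaryocytes, which also express Pf4, 3 of 12 genes had a row with 0 called and Clec1b at −0.65 (adjusted p of 0.436). For lymphatic endothelium, which also expresses Lyve1, 7 of 8 genes had a row with 0 called, 4 below 0 and 3 above, a median of −0.10 and a range of −0.31 to 0.40. Nr2f2 had the smallest p, at −0.31 (0.0617). Their sum was 173 to 192 CPM in mutant libraries and 180 to 196 CPM in WT libraries.

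Of 14 cardiomyocyte genes 0 were called, with Tnnt2 at −0.21 and an adjusted p of 0.0658 in limma (0.0138 with robust variances). Of 12 fibroblast and cushion genes 1 was called lower, Fbln1 at −0.34, with a median of −0.04 over the list. The medians were −0.54 for the macrophage and phagocyte genes, −0.65 for the 2 monocyte and neutrophil genes, −0.46 for mast cell, −0.45 for erythroid, −0.24 for endocardial and endothelial and −0.05 for cardiomyocyte genes.

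**Figure D4:**
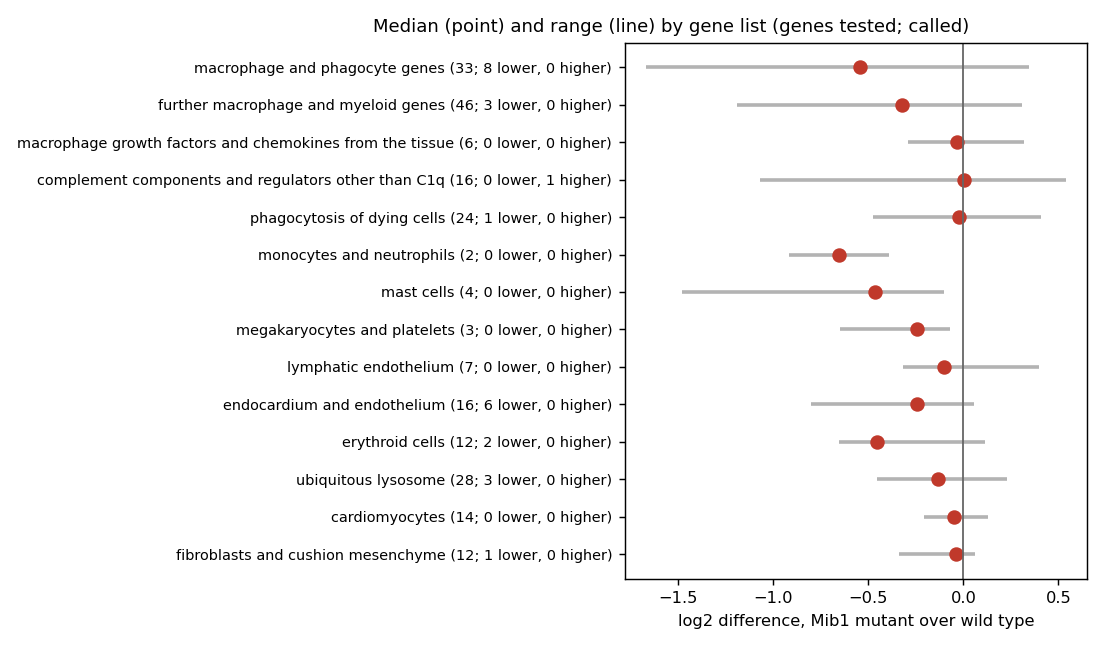
Median (point) and range (line) of the log2 difference of mutant over wild-type ventricles for each gene list (x axis), with the number of genes tested and called in limma beside its name. The macrophage and phagocyte genes have their median at −0.54 and the further macrophage and myeloid genes at −0.32, while the lists for growth factors, other complement genes, uptake of dying cells, cardiomyocytes and fibroblasts lie within 0.05 of 0.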

How the data were processed

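Polyadenylated RNA of 8 pooled ventricle libraries was sequenced from 1 end. Per the submitters' processing notes, cutadapt 1.2.1, RSEM 1.16, Bowtie2 0.12.7 (version as named), limma and edgeR were used with build mm9. The values the authors deposited are a score: log2 CPM with a prior of 0.5 counts, multiplied by a constant per library. Dividing each column by its constant gave log2 CPM, and 100% of the counts behind them were whole within 0.001. Columns without a sample numbered 0. Neither edgeR nor DESeq2 was run here, since the deposited unit is not a count; voom weights on the recovered counts were an alternative. The labels do not say how the genes of the table were selected.

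Symbols came from GENCODE M21 (GRCm38) for 13428 of 13869 genes, lengths from its longest transcripts, and promoters from RefSeq (GRCm38.p6), for names and sequences only, since the counts used mm9. Of 32 promoter windows, 28 had their first transcribed 30 bases in a GENCODE transcript of that gene. The comparison used limma 3.58.1 (R 4.3.3, eBayes with trend, group as the only term). It covered the 13740 genes whose log2 CPM averaged 0 or more, with p adjusted over all of them, and the fit was tested on simulated data. Libraries sharing a replicate number correlated at −0.04 to 0.1 after removal of group means, so numbers were not used as pairs. The members, roles, 14 further lists and tests were chosen with earlier results of these data known. The text names all members, up to 3 called genes of smallest p per further list (or the gene of smallest p), and genes said to be chosen after their values were seen. The counting error is the SD expected from counts alone. Of the called genes in the further lists, 1 is not reported here.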

Additional observations from a re-analysis of the deposited data

Results flagged for a closer look

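In 120 groups of 4 libraries, of the genes named, the lowest and highest library were compared with the others by the ratio of Dixon at its usual critical value, which chance passes in about 1 in 20 groups. Mpeg1 had 8.02 CPM in mutant replicate 1 (91 counts), against 10.3 to 10.8 CPM in the other mutant libraries. Cd53 had 1.41 CPM in mutant replicate 1 (16 counts), against 2.69 to 2.93 CPM in the other mutant libraries. Laptm5 had 15.7 CPM in WT replicate 1 (109 counts), against 10.6 to 11.2 CPM in the other WT libraries. These are the libraries that were lowest of the mutant group and highest of the WT group in most members.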

How the results depend on the processing

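Of 23 alternatives, 2 were added once the values were known (the deposited scaling left in place, and an adjusted p under 0.01). The number of members called lower was 8 with the replicate block and with each scaling and pseudocount, 6 with robust variances or a filter of 5 CPM, 5 with no trend (where Aif1 entered), 3 at an adjusted p under 0.01 and 3 to 8 with a library left out; none was called higher in any of these. The called members lay below 0 in each alternative that tested them; the filter of 5 CPM left out Trem2 and Tyrobp. Apoe and Gpnmb lost their calls with robust variances, and with no trend these and C1qc and Ctss did. With a pseudocount of 5 CPM, which shrinks low genes, the median difference was −0.23 for the members, −0.28 for the complement and phagocytic genes and −0.027 for the resident markers. With the filter of 5 CPM it was −0.39 for the members, −0.62 for the complement and phagocytic genes and 0.0029 for the resident markers. Of the complement and phagocytic genes, only the C1q chains passed this filter.

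Leaving out a library moved the median of the resident markers between −0.11 and 0.015, and differences crossed 0 for F13a1 (−0.015 to 0.18), Irf8 (−0.013 to 0.14), Pf4 (−0.22 to 0.015) and Csf1 (−0.072 to 0.032, and 0.0028 under quantile scaling), where the cause was not tested. With the replicate block, Lcp1 and Cyba lost their calls (adjusted p of 0.0542 and 0.0650) and no member did. Outside the members, Tnnt2 was called with robust variances, voom weights or the filter of 5 CPM, Msr1 with robust variances and Unc93b1 with voom weights. With no trend, calls were lost by Masp1, Cd36, Cyba, Ctsd, Grn, Fbln1, Npr3 and Hba-a1 (adjusted p of at most 0.217); Hba-a1 also lost it with robust variances (0.248), quantile scaling (0.0708), total-count scaling (0.0591) and no filter (0.0503), Cyba with total-count scaling (0.0529) and Cd36 with the deposited scaling (0.05003). Of the 33 members, 7 had a mean under 2.5 CPM, where few counts stand behind a value.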
